A study of Bos taurus with 16 samples.

Results

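The CD3 complex and T cell genes are 10 genes of the T lymphocyte that were measured on a bovine oligonucleotide array: CD3D, CD3E, CD3G and CD3Z (now CD247), the kinases MGC126900 (LCK) and LOC504509 (ZAP70), and the surface proteins CD2, CD5, CD6 and CD8A. They were taken by name, as the probes whose gene name or bracketed symbol in the array's annotation is one of these names. That rule used no values, but the names were chosen with earlier results of these data known. The 10 genes were represented by 11 of the 21475 probes of the array, with 2 probes for ZAP70, and all 11 were among the 16651 probes that were bright enough to be tested. The uterus and blood of 4 pregnant cows were taken at an abattoir, at day 164 of pregnancy for animal 1, day 239 for animal 2, day 242 for animal 3 and day 248 for animal 4. From each cow, cells positive for CD14, a monocyte surface protein, were sorted by flow cytometry from dispersed endometrium (endometrial CD14+ cells) and from the mononuclear cells of the blood (blood CD14+ cells). RNA of each of the 8 preparations was amplified before labeling, and each animal was hybridized on 2 arrays with 2 colors, as technical replicates, with endometrium and blood on the same array. The dyes were exchanged between the 2 arrays of animals 1, 2 and 4, but in animal 3 the endometrium carried Cy5 and the blood Cy3 on both arrays, so that dye and tissue cannot be told apart in that animal. The labels call the cow the biological replicate, so that n is 4 cows. The p-values, SE and confidence intervals of limma rest on the spread between the 4 cows after it was drawn toward that of all probes tested. They are thus not those of the 4 cows alone.

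The T cell receptor is a pair of chains that bind antigen, either alpha with beta or gamma with delta, and neither chain can signal alone. The signal is carried by the CD3 complex, built from the CD3 delta, epsilon and gamma chains and a pair of zeta chains (CD247). After the receptor binds, the kinase LCK, which CD4 and CD8 bind, phosphorylates motifs in the CD3 and zeta chains. The kinase ZAP70 docks there and passes the signal on. Natural killer cells use the zeta chain, CD2 and ZAP70 without the receptor, and cattle carry a large population of gamma delta T cells in blood and mucosa. Monocytes and macrophages, the cells that CD14 selects, do not normally assemble the CD3 complex.

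The probes behind the CD3 subunits and both ZAP70 probes are shown by their last 30 of 60 bases, as deposited with the array, 5′ to 3′, because the values of a probe belong to the stretch of transcript it binds. Capitals mark the letters AATAAA, read on the printed strand only, which is the usual signal for cutting and tailing the 3′ end of a transcript.
CD3D: gacaagaggtgtcaggcaatAATAAActcg
CD3E: tgagaaagaaaagaAATAAAgtgtatttgg
CD3G: ctcagagagatttgccttttctggaaaaat
CD247: gagccttactcttttgcatAATAAAtacct
ZAP70: ctgtggcttcccaaggtgcactgtttgctg
ZAP70, second probe: ccacactcatttccccacattagacacatt
The letters were found in 3 of the 11 probes of these genes, those of CD3D, CD3E and CD247, and in 9.82% of all 21475 probes over the same 30 bases. The 2 ZAP70 probes share no such landmark and were designed on different transcript records. In RefSeq's table of the bovine assembly ARS-UCD2.0, the genes CD3E, CD3D and CD3G follow each other with no other protein-coding gene between them, as do CD6 and CD5. The array's annotation gave no genome position for its probes, and none is given here.

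Because the labels describe sorted CD14+ cells, CD14 itself was read first. On the log2 scale of normalized intensity, the CD14 probe was at 12.17, 6.41, 8.14 and 6.82 in the endometrial cells of animals 1 to 4. In their blood cells it was at 14.24, 6.30, 7.63 and 6.69. Both preparations of animal 1 thus stood at least 4.03 log2 units above all 6 others, although the probe was well above background in every channel. The same order was seen for other markers of the monocyte and macrophage list. Of its 16 tested genes, 6 (CD14, CD68, CSF1R, CD163, CYBB and TLR4) were in both preparations of animal 1 more than 2-fold above all 6 other preparations, against 2.04% of all probes tested. That comparison was chosen after the values were seen and has no test, and the 6 genes are named for it. The endometrial cells of animals 3 and 4 held intermediate levels of several of these genes, with CD163, a scavenger receptor of macrophages, at 11.45 in both, against 14.40 in animal 1 and 8.22 in animal 2. By the labels, flow cytometry put the purity at 90 to 95% for the endometrial cells and 98 to 99% for the blood cells, but those measurements were not analysed here. The CD14 transcript of animals 2, 3 and 4 was thus low beside that of animal 1 in cells sorted for the protein. The values of the 10 genes are given by animal, and list counts also without animal 1. Animal 1 was also the earliest in pregnancy, and its day and the animal itself cannot be told apart.

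The T cell genes had the opposite order. In both preparations of animal 1, 6 of the 10 genes (CD2, CD3E, CD3G, CD247, CD8A and ZAP70) were more than 2-fold below all 6 other preparations, and 1.19% of all probes tested showed this. The exceptions were CD3D and CD6, which were also low in the endometrial cells of animal 3, LCK, which was low in both preparations of animal 3, and CD5, which was near background in most channels. Averaged over the 10 genes and given relative to the mean of each gene over the 8 preparations, the level was -2.05 in the endometrium and -2.91 in the blood of animal 1. It was 1.54 and 1.38 in animal 2, -0.02 and 0.21 in animal 3, and 0.89 and 0.96 in animal 4, always with endometrium first. In animals 2, 3 and 4 the tissues of an animal differed by at most 0.225 on this scale, and each stood at least 2.03 units above both tissues of animal 1. In bulk RNA, fewer T cells and less T cell RNA in each cell cannot be told apart. The mean of the monocyte and macrophage list, on the same relative scale, was 3.01 and 1.82 in animal 1, -1.11 and -1.91 in animal 2, 0.54 and -1.10 in animal 3, and 0.42 and -1.68 in animal 4, and the part of a mixture of cells in the T cell values was not tested.

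**Figure D1:**
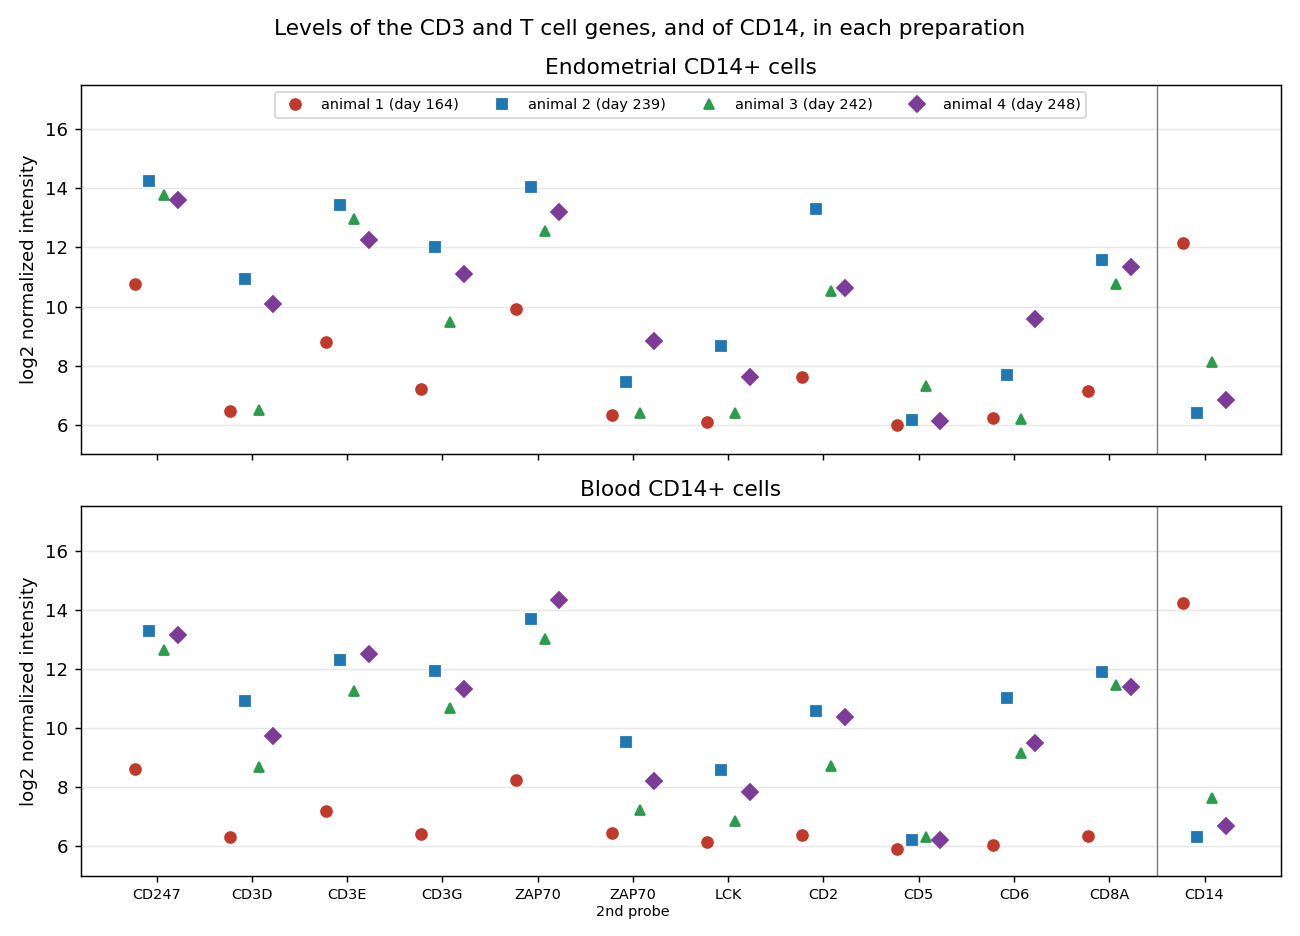
Log2 normalized intensity (vertical axis) of each of the 11 probes of the T cell genes and of CD14 in endometrial CD14+ cells (upper panel) and blood CD14+ cells (lower panel), with 1 point per animal, the mean of its 2 arrays. Animal 1 (red circles) is lowest for most T cell probes, at 8.81 and 7.19 for CD3E, and highest for CD14, at 12.17 and 14.24.

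The first comparison that the design implies is between the tissues, endometrium over blood within each animal. At a threshold of 0.05 for the adjusted p, with a change over 2-fold, limma called 0 of the 10 genes, and it called 0.0661% of all probes tested, or 11 probes. The lowest adjusted p among the genes was 0.262. The study's methods also set a limit on the false discovery rate, and at an adjusted p of at most 0.01 no probe was called. By an unadjusted p of at most 0.05 with a change over 2-fold (the unadjusted rule below, which leaves out that limit), 3 of the 10 genes passed, CD2, CD247 and CD3E, all higher in the endometrium, against 5.27% of all probes in that direction. None passed in the direction of blood, where the share of all probes was 5.10%. The methods' analysis of variance, which uses the spread of the 4 animals alone, left 1 of the 3, CD247 (p of 0.0461). It gave a p of 0.0604 for CD2 and 0.104 for CD3E, although limma's intervals for both, given below, lie above 0. CD2 and CD247 were higher in the endometrium in 4 of 4 animals, as were 10.2% of all probes, and none of the 10 was higher in blood in 4 of 4, as 14.7% of all probes were. The median log2 ratio of the 10 genes was 0.02, and that of all probes was -0.02. Without animal 1 the median of the 10 genes was -0.27, and that of all probes tested was -0.001. By the unadjusted rule 1 of the 10 then passed toward the endometrium, CD2, and 1 toward blood, CD6. Of all probes tested, 4.67% passed toward the endometrium and 5.01% toward blood. Again 0 of the 10 were called by the adjusted p. An exact permutation test over 4 pairs cannot give a p below 0.125.

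**Figure D2:**
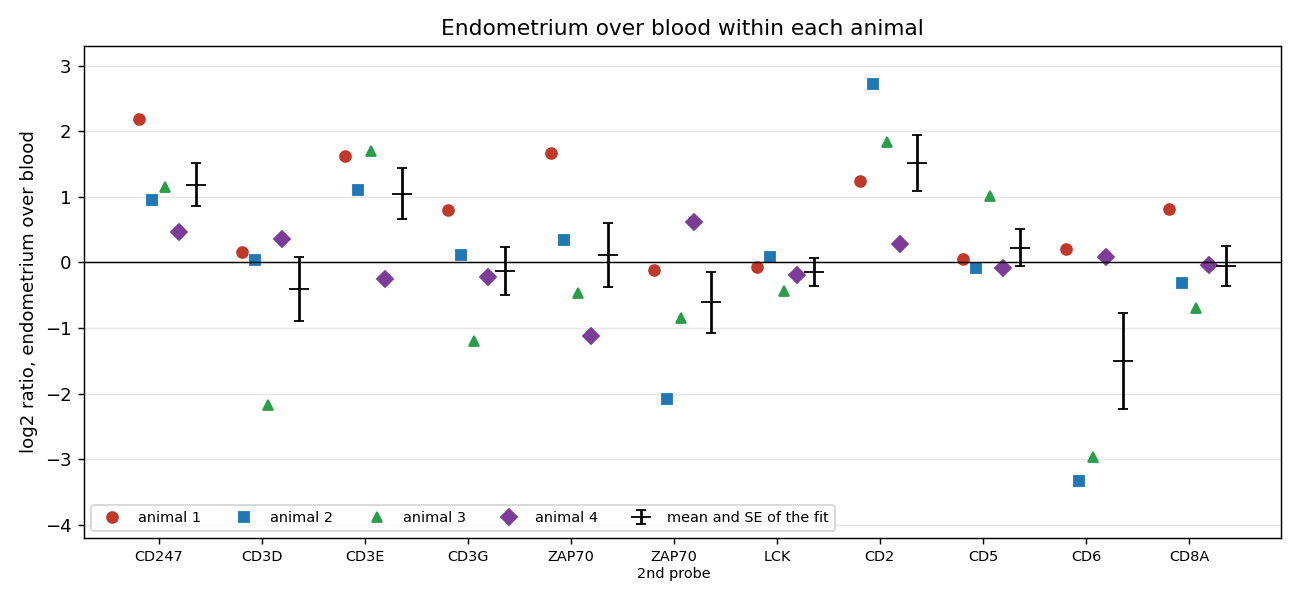
Log2 ratio of endometrium over blood (vertical axis) of each probe within each animal (colored points, the mean of 2 arrays), with the mean and standard error of limma's fit in black. CD2 and CD247 lie above 0 in all 4 animals, whereas CD6 lies near 0 in animals 1 and 4 and near -3 in animals 2 and 3.

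The CD3 chains did not move as 1 group between the tissues. CD247, the zeta chain, was at 10.78, 14.25, 13.78 and 13.61 in the endometrial cells of animals 1 to 4 and at 8.60, 13.30, 12.64 and 13.14 in their blood cells. Its log2 ratios were 2.18, 0.95, 1.14 and 0.47, with a mean of 1.19 ± 0.33 (SE, n = 4 animals), which is a 2.28-fold difference with a 95% confidence interval of 0.35 to 2.02 on the log2 scale. The unadjusted p of limma was 0.0140 and the adjusted p was 0.262. Every animal had more CD247 signal in the endometrium, and the difference was largest in animal 1, where the levels were lowest. Without animal 1 the mean ratio was 0.85, under 2-fold, with an unadjusted p of 0.0373.

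CD3E, the epsilon chain that pairs with both the delta and the gamma chain, was at 8.81, 13.43, 12.96 and 12.25 in the endometrium and at 7.19, 12.32, 11.26 and 12.50 in the blood of animals 1 to 4. The endometrium was higher in 3 animals, and in animal 4 it was lower by a small margin. The mean log2 ratio was 1.04 ± 0.39 (SE, n = 4 animals), with a 95% confidence interval of 0.07 to 2.02. Its unadjusted p was 0.0404 and its adjusted p 0.309, and without animal 1 the ratio was 0.85 with an unadjusted p of 0.133. The difference between animals was larger than that between tissues for CD3E. In the scanner's own units, before any normalization, its intensity lay between 71.8 and 172 in the blood channels of animal 1 and between 1320 and 9686 in those of the other 3 animals.

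CD3D, the delta chain, was at 6.45, 10.94, 6.51 and 10.10 in the endometrium and at 6.30, 10.91, 8.68 and 9.74 in the blood. The tissues of animals 1, 2 and 4 differed by at most 0.36 on the log2 scale, and animal 3 had a log2 ratio of -2.17. The endometrial cells of animal 3 thus had a CD3D level next to that of animal 1, while their CD3E level was the second highest of the 8 preparations. All 4 CD3D readings of animal 3, the animal whose dyes were not exchanged, cleared the background. Its endometrial readings were still dim, at 80.25 and 70.5 in the scanner's own units over backgrounds of 38.5 and 42. They lay, with both tissues of animal 1, near the lower limit of the scale. The sizes of the CD3D ratios of animals 1 and 3 rest on such dim values. The mean log2 ratio was -0.41 ± 0.48 (SE, n = 4 animals), with an adjusted p of 0.723 and an interval of -1.62 to 0.80. Without animal 3 it was 0.18.

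CD3G, the gamma chain, was at 7.21, 12.03, 9.49 and 11.11 in the endometrium and at 6.42, 11.92, 10.68 and 11.33 in the blood. Its log2 ratios were 0.79, 0.11, -1.19 and -0.22, so the tissues had no common direction. The mean was -0.13 ± 0.37 (SE, n = 4 animals), with an adjusted p of 0.904, and its interval ran from -1.05 to 0.79. The sign of that mean was the opposite with the authors' value table, the processed signal, loess alone and median centring. In animal 3, CD3D and CD3G were lower in the endometrium than in the blood while CD3E and CD247 were higher. This split within 1 complex was seen in 1 animal, the one without a dye exchange, where dye and tissue cannot be told apart, and it was not tested.

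Of the kinases, ZAP70 was read by 2 probes that disagreed. The brighter probe was at 9.91, 14.04, 12.55 and 13.21 in the endometrium and at 8.24, 13.70, 13.01 and 14.33 in the blood of animals 1 to 4. Its log2 ratios were 1.67, 0.34, -0.46 and -1.12, with a mean of 0.11 ± 0.49 (SE, n = 4 animals) and an adjusted p of 0.949. The second probe, at 6.32, 7.44, 6.39 and 8.83 in the endometrium and 6.44, 9.52, 7.24 and 8.22 in the blood, had ratios of -0.12, -2.08, -0.85 and 0.61. The direction of the 2 probes was the same only in animal 3. For ZAP70 no direction between the tissues is therefore given. Within each tissue, both probes were lowest in animal 1.

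LCK, the kinase that starts the signal, was at 6.09, 8.68, 6.41 and 7.63 in the endometrium and at 6.16, 8.59, 6.85 and 7.82 in the blood. These were dim values, well above background in 6 of 8 endometrial and 7 of 8 blood channels. The tissues of an animal differed by at most 0.44, the mean log2 ratio was -0.15 ± 0.21 (SE, n = 4 animals) with an interval of -0.69 to 0.38, and the adjusted p was 0.772. The size of these differences depended on the processing. In the authors' value table LCK was at 3.90, 10.14, 5.85 and 8.81 in the endometrium and at 4.95, 10.06, 7.59 and 9.05 in the blood. The mean ratio was -0.74 there and -0.73 with the processed signal, at unadjusted p of 0.1884 and 0.2015 by limma. Animal 2 was highest in both tissues. Animal 1 was lowest in both, and animal 3 was next.

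Among the surface proteins, CD2, an adhesion receptor of T and natural killer cells that binds CD58, had the largest difference of the 10 genes toward the endometrium. It was at 7.61, 13.31, 10.54 and 10.64 in the endometrial cells of animals 1 to 4 and at 6.38, 10.59, 8.71 and 10.36 in their blood cells. The log2 ratios were 1.23, 2.73, 1.83 and 0.27, all above 0, with a mean of 1.52 ± 0.43 (SE, n = 4 animals), a 2.86-fold difference with a confidence interval of 0.43 to 2.60 on the log2 scale. Its unadjusted p was 0.0148 and its adjusted p 0.262. Without animal 1 the ratio was 1.61 with an unadjusted p of 0.0358, and without animal 3 it was 1.41 and no longer passed, at 0.0588. The levels of the tissues overlapped between animals, since the blood of animals 2, 3 and 4 was above the endometrium of animal 1.

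CD6, a scavenger receptor family member that binds ALCAM, leaned toward blood in 2 animals. It was at 6.24, 7.69, 6.21 and 9.57 in the endometrium and at 6.04, 11.03, 9.17 and 9.49 in the blood. The log2 ratio was 0.20 in animal 1 and 0.08 in animal 4, but -3.33 in animal 2 and -2.96 in animal 3. In the blood of animal 1 neither channel was well above background. The mean of -1.50 ± 0.74 (SE, n = 4 animals) had an unadjusted p of 0.0920, an adjusted p of 0.387 and an interval of -3.35 to 0.34. Without animal 1 it was -2.07, with an unadjusted p of 0.0478 and an adjusted p of 0.419. It was -0.89 without animal 2 (unadjusted p of 0.287) and -1.02 without animal 3 (unadjusted p of 0.293). In animals 2 and 3, CD6 and CD2 thus differed between the tissues in opposite directions.

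CD5, the neighbor of CD6 and a brake on the receptor's signal, was hardly detected. Its signal cleared the background in 2 of 8 endometrial channels, both of animal 3, and in 4 of 8 blood channels. The level was 5.98, 6.14, 7.31 and 6.12 in the endometrium and 5.92, 6.23, 6.31 and 6.20 in the blood. The only separate value was the endometrium of animal 3, which gave a log2 ratio of 1.01, and the mean ratio was 0.22 ± 0.28 (SE, n = 4 animals) with an adjusted p of 0.736. The range of CD5 between animals is thus that of a probe near its lower limit, and differences in it may not have been detectable.

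CD8A, the alpha chain of the coreceptor of cytotoxic T cells, also found on some natural killer and gamma delta T cells, was at 7.15, 11.59, 10.76 and 11.34 in the endometrium and 6.33, 11.90, 11.46 and 11.38 in the blood. The gap between animal 1 and the other animals was at least 3.61 within the endometrium and at least 5.05 within the blood, the widest gap of the 10 genes in each tissue. Between the tissues the mean log2 ratio was -0.06 ± 0.31 (SE, n = 4 animals), with an adjusted p of 0.958 and an interval of -0.84 to 0.72. The sign of that mean turned under 6 of the alternative settings for values and normalization. The partner chain CD8B was at 6.49, 10.82, 9.24 and 11.06 in the endometrium and 6.45, 11.54, 10.32 and 11.08 in the blood, with the same low animal.

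The chains of the receptor itself were read by 8 probes whose annotation describes a T cell receptor chain, and 5 of them are of gamma or delta chains. All 5 were higher in the endometrium in 4 of 4 animals, as were 10.2% of all probes tested. All 5 passed the unadjusted rule toward the endometrium, against 5.27% of all probes. None was called by the adjusted p, whose lowest value among them was 0.262. Delta (TRDC, LOC404176 in the files) was at 12.06, 15.41, 14.72 and 13.85 in the endometrium and 8.53, 12.85, 12.001 and 13.63 in the blood. Its log2 ratios were 3.53, 2.56, 2.72 and 0.21, with a mean of 2.25 ± 0.57 (SE, n = 4 animals). The 4 gamma probes had mean ratios of 1.26 for TRGC6, 1.29 for LOC530015, 1.33 for TRG@ and 1.42 for TRGC4. The gamma genes are close copies of each other, and how far a probe binds RNA of its neighbors was not tested, so these 4 values may rest on shared transcripts. Without animal 1 the mean ratios were 1.83 for TRDC, 0.86 for TRGC6, 1.31 for LOC530015, 1.40 for TRG@ and 1.61 for TRGC4, and the adjusted p of each was 0.419.

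The alpha and beta chains showed smaller differences. The alpha constant region (TRAC, LOC511486 in the files) was at 8.02, 12.40, 11.11 and 11.75 in the endometrium and 7.22, 11.83, 10.90 and 11.66 in the blood, with log2 ratios of 0.80, 0.57, 0.21 and 0.09. The beta constant region (LOC509513) had ratios of 1.04, 0.45, 1.00 and -0.002 in animals 1 to 4, and a mean of 0.62 ± 0.27 (SE, n = 4 animals). The TRB@ probe was between 6.25 and 6.75 in all 8 preparations, the bottom of the scale. The difference between gamma or delta and alpha or beta chains was not tested. Within each tissue, all 8 probes were lowest in animal 1.

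**Figure D3:**
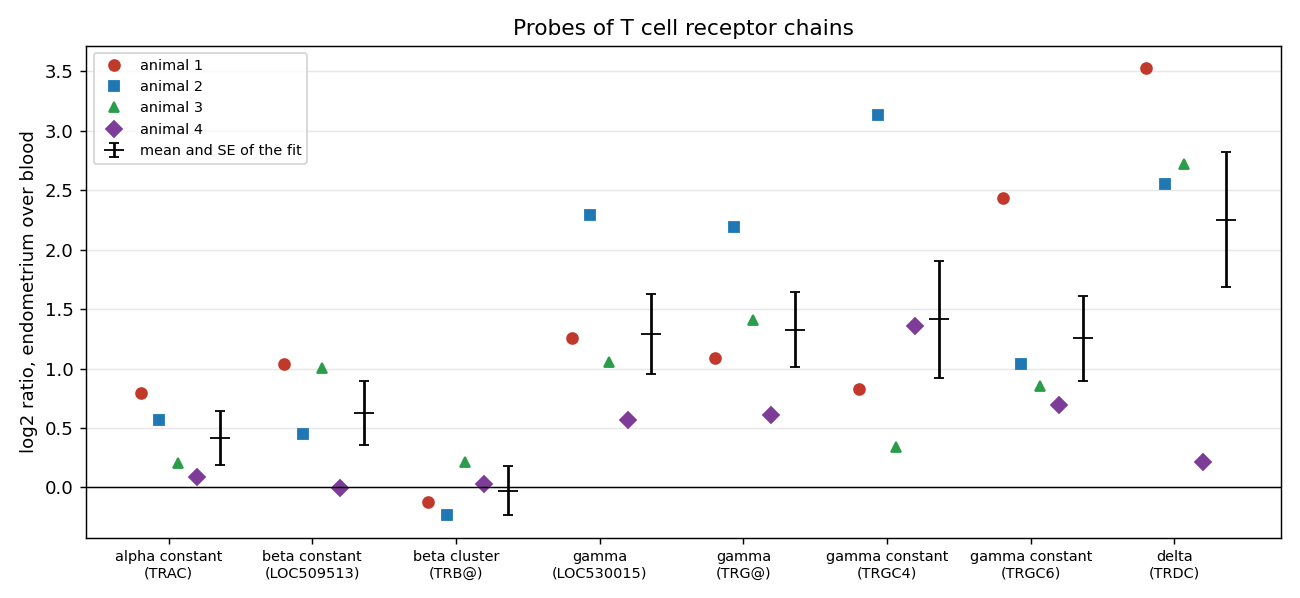
Log2 ratio of endometrium over blood (vertical axis) of the 8 probes annotated as T cell receptor chains, with 1 colored point per animal and limma's mean and standard error in black. The delta probe averages 2.25 and the 4 gamma probes 1.26 to 1.42, and all of their points lie above 0.

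Of 28 genes on a list of signaling partners, 25 were matched to a probe, all tested, and none was called by the adjusted p. None passed the unadjusted rule toward the endometrium, where 5.27% of all probes tested did, and toward blood, where 5.10% did, 2 passed. These were GRB2, an adaptor used by many receptors, at a log2 ratio of -1.62, and UBASH3A, an inhibitor of T cell signaling, at -1.36. At the other end stood TXK, a kinase of T and natural killer cells, at 1.56 (adjusted p of 0.385), and PTPN6, a phosphatase of blood cells, at 1.28 (adjusted p of 0.377). The median ratio of the list was -0.36, and it was -0.13, -0.46, -0.48 and -0.17 in animals 1 to 4. Of the 25 genes, 7 had a mean ratio above 0, 4 were lower in the endometrium in 4 of 4 animals and 1 was higher in 4 of 4, with no test of the list. The shares of all probes tested were 14.7% lower and 10.2% higher in 4 of 4. With animal 1 left out, the unadjusted rule was passed by 2 genes toward the endometrium and 2 toward blood, against 4.67% and 5.01% of all probes tested. In both preparations of animal 1, 8 of the 25 were over 2-fold below all others, among them CD8B, PRKCQ, SKAP1 and SH2D2A, against 1.19% of all probes tested.

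On a list of T cell lineage genes, 22 of 43 were tested. Of these, 5 passed the unadjusted rule toward the endometrium and 1 toward blood, against 5.27% and 5.10% of all probes tested. Besides the receptor chains TRDC, TRGC4 and TRGC6, already given, the 5 were CD7 and CD96, surface proteins that T cells share with natural killer cells. CD7 had log2 ratios of 1.56, 5.06, 3.86 and 1.86 in animals 1 to 4, and CD96 of 2.74, 3.20, 2.58 and 0.51. The 1 toward blood was CCR7, the homing receptor of naive T cells and of other leukocytes, with ratios of -1.92, -4.65, -5.30 and 0.13, and ICOS, a costimulator of activated T cells, stood next at -1.56 (adjusted p of 0.403). With animal 1 left out, the counts were 4 toward the endometrium and 1 toward blood, and none was called by the adjusted p with or without this animal. The list's median was -0.13, and 5 of its genes shared the low position of animal 1, against 1.19% of all probes tested.

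Markers of other blood cells were read beside the T cell genes, and none of the natural killer, B cell or monocyte genes was called by the adjusted p, whose lowest values were 0.234, 0.254 and 0.0775 in that order of the lists. Of all probes tested, 5.27% passed the unadjusted rule toward the endometrium and 5.10% toward blood. On the list of natural killer and cytotoxic genes, 7 of 20 passed toward the endometrium and none toward blood, with a median log2 ratio of 0.85. GZMB and GZMA, the granzymes of killer granules, had mean ratios of 3.23 (adjusted p of 0.262) and 2.48 (adjusted p of 0.234). The GZMA value is that of a single probe. The paper also reports a granzyme A gene under another record, with a far larger increase in the endometrium, which is not given here. NCR3 and NCR1, activating receptors of natural killer cells, stood at -1.35 (adjusted p of 0.375) and -0.26 (adjusted p of 0.568). In both preparations of animal 1, 8 of the 20 genes of the natural killer list were over 2-fold below all others, against 1.19% of all probes tested. On the B cell list 7 of 13 passed toward blood and none toward the endometrium, led by TNFRSF13C at -2.17 and CD22 at -2.14, each with an adjusted p of 0.262. On the monocyte and macrophage list 10 of 16 passed toward the endometrium, led by the complement genes C1QA at 3.81 (adjusted p of 0.133) and C1QB at 3.62 (adjusted p of 0.0775). With animal 1 left out, 4 natural killer and 8 monocyte genes passed the unadjusted rule toward the endometrium and 8 B cell genes toward blood, where 4.67% and 5.01% of all probes passed toward endometrium and blood, and again none was called. CD14 itself had a mean ratio of -0.33 with an adjusted p of 0.782.

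Lists of cells outside the blood followed. Toward the endometrium, 12 of 16 trophoblast genes, 7 of 14 epithelial genes and 3 of 14 stromal genes passed the unadjusted rule, with none toward blood in any of the 3 lists, and 5 of the trophoblast genes were called by the adjusted p. The shares of all probes tested were 5.27% by the unadjusted rule toward the endometrium and 0.0661% by the adjusted p. Without animal 1 the counts of the 3 lists were 12, 5 and 1, and no trophoblast gene was called. The largest mean ratios were 4.64 for PAG10, 4.36 for PRP6, 3.24 for CLDN3 and 3.21 for KRT18. Both leading stromal genes had their highest ratio in animal 1. DCN, a matrix proteoglycan, had ratios of 7.11, 0.31, 3.17 and 1.61 in animals 1 to 4, with a mean of 3.05 and of 1.70 without animal 1, and COL1A1, a collagen chain, had ratios of 5.66, -0.06, 2.04 and 2.40, with means of 2.51 and 1.46. Of 10 granulocyte genes, none passed toward the endometrium and 1 passed toward blood, where 5.10% of all probes passed. The endometrial cells of animal 3 had the highest epithelial list of the 8 preparations at 3.21 on the relative scale, and those of animal 1 the highest stromal list at 4.42. In the endometrial cells of animal 3, CD3D, CD3G and CD6 were more than 2-fold lower than in its blood. CD2, CD3E, CD247 and CD5 were more than 2-fold higher there, with log2 ratios of 1.83, 1.70, 1.14 and 1.01. The part of epithelial and stromal cells in the ratios of the T cell genes was not tested.

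**Figure D4:**
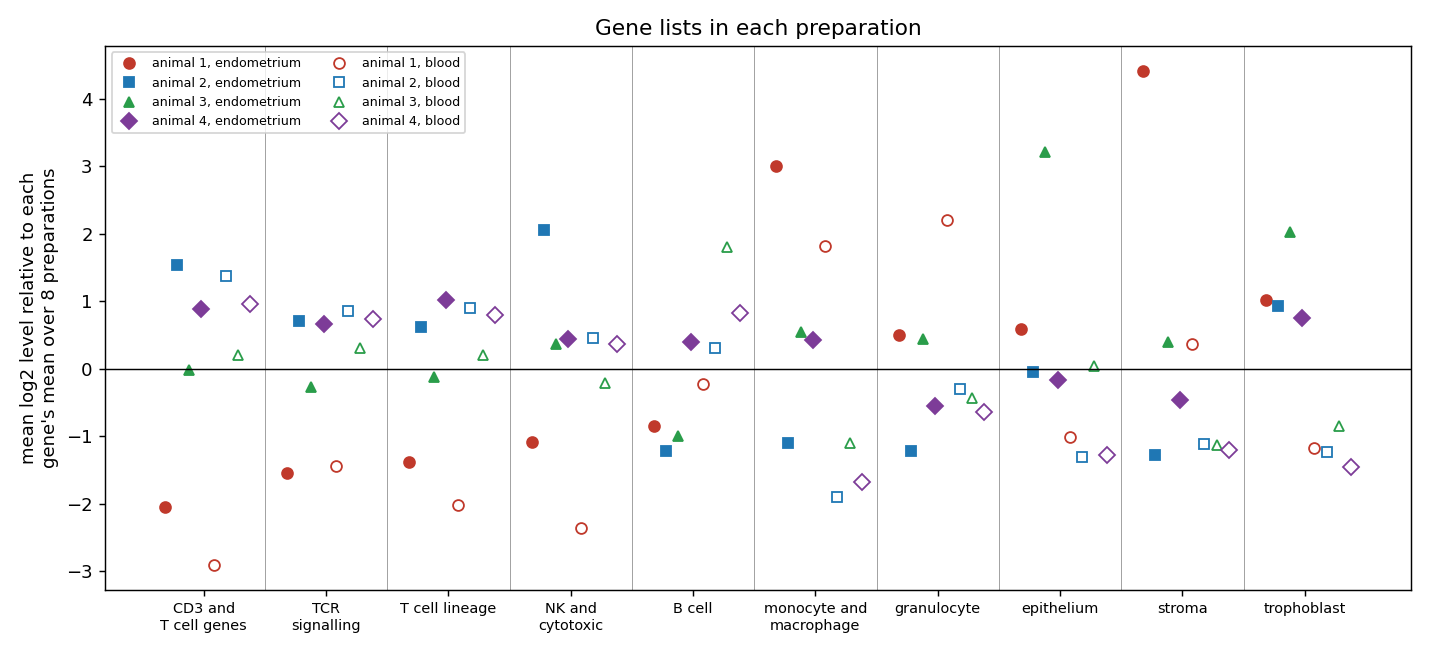
Mean log2 level of each gene list in each preparation, relative to the mean of each gene over the 8 preparations (vertical axis), with filled symbols for endometrium and open symbols for blood. The T cell genes are lowest in animal 1, at -2.05 and -2.91, where the monocyte and macrophage list is highest, at 3.01 and 1.82.

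The genes whose pattern was most like that of CD3D, CD3E and CD3G were found by Pearson's r with the mean of the 3 standardized profiles over the 8 preparations. The points share animals and arrays and include the low pair of animal 1, so r is a description with no p. Outside the 10 genes, the named genes with the highest r were SNTB1 (0.987), SMCHD1 (0.984), SKAP1 (0.980), ARAP2 (0.980), TRAC (0.978), GIMAP6 (0.973), CD8B (0.971), KLRD1 (0.970), EGLN3 (0.968) and KLRC (0.964). SKAP1 is an adaptor of the T cell receptor's signal, and KLRD1 and KLRC are lectin-like receptors of natural killer and some T cells. Among the genes chosen here that did not make the profile, r was 0.966 for the bright ZAP70 probe, 0.953 for CD8A, 0.906 for CD247, 0.905 for LCK, 0.897 for CD2, 0.756 for CD6 and 0.145 for CD5. For the second ZAP70 probe it was 0.75. CD5 had the lowest r of the 10 genes, and no cut-off was set for following the profile.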

How the data were processed

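Endometrial and blood CD14+ cells of 4 cows were compared on 8 two-color Agilent arrays (16 samples). The deposited scanner files hold the intensity of each spot and of its local background in each dye, without normalization, with 44407 spots an array, of which 42990 were not controls. They also hold a processed signal intensity that the scanner software had corrected for background and dye. The submitters' processing notes name version 9.5 of Agilent Feature Extraction and the file headers version 10.5.1.1. The authors' value table holds log2 values normalized over all 16 channels. Its columns were matched to the files by the values of each probe, with a tolerance of 0.001. Every column matched at 100% of the probes, in its labeled dye, a file that GEO lists under the animal's other technical replicate, and at most 0.014% of the probes of its own file. Files were therefore assigned by this match, which was decided once the values had been seen.

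Median intensities were corrected with limma 3.58.1 in R 4.3.3 (normexp, offset 50), then by loess on each array and quantiles across all channels, and the spots of a probe were averaged. Control spots and outlier spots were left out. The median spot intensity was 48 to 155.5 in blood and 52.5 to 402.75 in endometrial channels, 65.2% to 82.9% of spots were well above background and none was saturated. Arrays have no depth, and their number limits the precision. A probe was tested if well above background in at least 4 of 8 channels of a tissue. The log2 ratio of endometrium over blood, the mean of an animal's 2 arrays, was tested against 0 over 4 animals with lmFit and eBayes. Benjamini-Hochberg adjustment was over all probes tested. Each SE and interval is that of this fit, whose variance for a probe borrows from all probes tested. The ratios of a member differed between the 2 arrays of an animal by at most 0.35, with a median of 0.11. Of several probes of a gene the brightest was used. The pairing by animal comes from the labels, and after subtracting tissue means the tissues of a cow correlated across probes (r of 0.62, 0.36, 0.21 and 0.46 for animals 1 to 4).

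The named genes are the 10 members, CD14, the 10 named probes most like the CD3 genes, and the 2 highest and 2 lowest ratios of each list. For the B cell, monocyte, trophoblast, epithelial, stromal and granulocyte lists the report prints a part of these. Receptor chains were found by annotation, and genes named for being low or high in animal 1 were chosen after the values were seen. Members and lists were chosen with earlier results of these data known. Names were updated from a RefSeq gene table of ARS-UCD2.0 (3519 probes by accession, 9987 by gene identifier and 297 by name, with 7672 keeping the name in the files). The fit was also run on simulated ratios with known changes and independent noise. That run does not bear on the low position of animal 1 or on probes that vary together, and its outcome is not given here. Alternatives changed the values, background, normalization, filter, pairing, dye term, slide, animals, test, threshold, probe choice and assignment of files. The flow cytometry and qPCR were not analysed here, and 1 marker gene is not reported here.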

Additional observations from a re-analysis of the deposited data

Results flagged for a closer look

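Within each tissue, and for the ratio, the 4 animals were searched for a value standing far from the other 3 by Dixon's test, in 34 sets of 4 values. Chance alone marks about 1 such set in 20 where sets are independent, and 5 were found. These sets are not independent, since each ratio is the difference of the levels searched beside it and genes share preparations. The count therefore cannot show an excess over chance. CD3D had a log2 ratio of -2.17 in animal 3, against 0.03 to 0.36 in the others. CD5 had a log2 ratio of 1.01 and an endometrial level of 7.31, both in animal 3, where alone its endometrial channels were well above background. In the blood of animal 1, CD247 stood at 8.60 and CD8A at 6.33, far below the other animals.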

How the results depend on the processing

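None of the 10 genes was called by the adjusted p under any alternative, with a lowest adjusted p of 0.0648 (CD247, 8 arrays with a dye term), and LCK was the 1 gene whose sign was the same in all. The median of all probes moved from -0.02 to -0.14 with the authors' value table. The count of all probes called, 11, was 224 with the value table, 171 with the processed signal, 50 without background correction, 66 at an offset of 16, 5 without quantiles, 0 with median centring, 5 with no filter, 44 with the filter of all 8 channels, 792 with the dye term and a random animal block, 20 on slide 1, 2 on slide 2, 0 in the methods' analysis of variance, 0 with files as attached, 0 at an adjusted p of 0.01, and 0 without any single animal. Without the replicate block, unpaired, it was 4. The number of members at unadjusted p, 3, was 0 without the block, 1 in the analysis of variance, 0 with files as attached, and 1 to 3 without single animals. Without animal 3 it was 1, CD247. The median ratio of the members was 0.80 in animal 1 alone. Files as attached gave -0.60 for CD2, -0.61 for CD247, -0.20 for CD3E, 0.021 for CD6 and -0.34 for ZAP70. ZAP70 was -0.25 over both probes, -0.006 on slide 2 and -0.41 to 0.52 without single animals. CD3G was 0.22 with the value table, 0.25 with the processed signal, 0.007 without quantiles and 0.30 with median centring. CD8A was 0.33 with the value table, 0.35 with the processed signal, 0.029 without background correction, 0.057 at an offset of 16, 0.073 without quantiles and 0.34 with median centring. Without single animals, CD6 ran from -2.07 to -0.89, CD3D from -0.66 to 0.18, CD3G from -0.44 to 0.23, CD5 from -0.036 to 0.33 and CD8A from -0.35 to 0.16. The causes were not tested. Counts added after the data were seen: the 5 gamma and delta probes at unadjusted p were 3 to 5 without single animals (3 without animal 2). The 5 of them higher in the endometrium in 4 of 4 animals were 4 with median centring and 5 in the other settings. The 6 members low in animal 1 were 8 with the value table, 5 without quantiles, 4 with median centring and 6 in the other settings.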
